A study of Mus musculus with 13 samples.

Results

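The mitochondrial chromosome of the mouse carries 37 genes, and the annotation gives each of them a symbol that starts with mt-. Selecting rows by that prefix found 35 of the 49315 genes in the count table, namely all 13 protein coding genes and all 22 transfer RNA genes. The 2 ribosomal RNA genes, mt-Rnr1 and mt-Rnr2, are not analysed here. RNA sequencing after poly(A) selection had been applied to mouse skeletal muscle in 13 libraries, to compare animals lacking the miR-181a2b2 microRNA locus with controls on either of a pair of diets.

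The 4 groups were KO muscle on the diet called HFSC (3 libraries, replicates 2 to 4), flox muscle on HFSC (4 libraries, replicates 1 to 4), KO muscle on chow (3 libraries, replicates 1 to 3) and flox muscle on chow (3 libraries, replicates 2 to 4). KO stands for a systemic knockout of miR-181a2b2 and flox for miR-181a2b2 flox/flox animals, whose titles read WT. The labels do not spell out HFSC, and they give neither the age nor the strain of the animals, nor which Cre, if any, the flox animals carried. They mention hindlimb ischemia for the series, without stating which limb a library came from or how long after surgery. Nothing states that separate animals lie behind the libraries, and p-values therefore reflect library-to-library spread that may in part be technical. The labels' extraction text names white adipose tissue although each source label reads skeletal muscle. Fast-fibre genes such as Myh4 summed to 84402 to 203445 CPM per library (12 of 12 genes detected) and adipocyte genes to 549 to 1427 CPM (11 of 11 detected), where CPM is counts per 1000000 on library sizes scaled by the trimmed mean of M values (TMM).

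The mitochondrial genome encodes core subunits of respiratory complexes I, III, IV and V, and the ribosomal and transfer RNAs that translate them inside the organelle. Both strands are copied by the polymerase Polrmt into long precursors, and the transfer RNAs lying between the other genes are cut out at both ends, which frees the messenger RNAs. Most of these messengers then receive a short poly(A) tail from Mtpap and are stabilised by Lrpprc and Slirp, whereas mature transfer RNAs carry CCA and no poly(A) tail. Counts of transfer RNA genes in poly(A)-selected libraries are therefore no measure of mature transfer RNA. In skeletal muscle the mitochondrial messengers are among the most abundant RNAs.

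Of the 35 genes, 12 protein coding genes and 14 transfer RNA genes lie on the plus strand, and mt-Nd6 and 8 transfer RNA genes on the minus strand. Neighbours overlap by 43 bases at mt-Atp8 and mt-Atp6, by 14 bases at mt-Nd5 and mt-Nd6, which lie on opposite strands, and by 7 bases at mt-Nd4l and mt-Nd4. The sources used here do not give the strand setting of the counting, so reads of a gene and of the precursor copied from the opposite strand over the same bases cannot be told apart. This touches mt-Nd6 and every minus-strand transfer RNA.

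A second feature of the genome bears on many of these genes. A stretch of chromosome 1 on the minus strand (chr1:24611535-24616197, GRCm38) holds 7 unprocessed pseudogenes whose matches span mitochondrial positions 6390 to 11042, called the copied interval below. Only annotated transcripts were compared, so the bases between the pseudogenes were not. Of mt-Atp8 43 of 204 bases matched, and no match was found for the transfer RNA genes of the interval. Within that interval lie 11 of the 35 genes, which are mt-Ts1, mt-Td, mt-Co2, mt-Tk, mt-Atp8, mt-Atp6, mt-Co3, mt-Tg, mt-Nd3, mt-Tr and mt-Nd4l. The nuclear copy was identical to mt-Co2 over 681 bases (Gm28661), to mt-Atp6 over 678 (Gm10925), to mt-Co3 over 783 (Gm28437) and to mt-Nd4l over 294 (Gm10222). It was also identical to 876 of the 1378 bases of mt-Nd4 (Gm28439), and it matched 483 bases of mt-Co1 with the single difference A1066T (Gm29216). The copy of mt-Nd3, Gm28438, matched 345 bases with a single difference, T3C, at mitochondrial position 9461 (positions are counted from 1 at the first base of the gene, with the mitochondrial base first).

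The results turn on these genes, and their sequences are shown so that the distinction the counts depend on can be seen. The first 60 bases of mt-Nd3 and of its nuclear copy follow, with the single differing base in capitals.
mt-Nd3: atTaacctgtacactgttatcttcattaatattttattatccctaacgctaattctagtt
Gm28438: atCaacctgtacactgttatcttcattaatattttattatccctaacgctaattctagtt
The transfer RNA genes on either side of mt-Nd3, for glycine (mt-Tg, chrM:9391-9458, plus strand) and arginine (mt-Tr, chrM:9808-9875, plus strand), read as follows.
mt-Tg: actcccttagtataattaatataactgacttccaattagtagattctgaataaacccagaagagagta
mt-Tr: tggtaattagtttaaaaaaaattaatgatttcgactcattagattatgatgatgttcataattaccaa
The transfer RNA genes that passed a test outside the copied interval were those for leucine (mt-Tl1, chrM:2676-2750), tryptophan (mt-Tw, chrM:4950-5016), both on the plus strand, and for proline (mt-Tp, chrM:15356-15422), tyrosine (mt-Ty, chrM:5260-5326) and glutamine (mt-Tq, chrM:3772-3842), all on the minus strand.
mt-Tl1: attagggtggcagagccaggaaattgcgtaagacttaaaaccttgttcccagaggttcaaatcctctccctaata
mt-Tw: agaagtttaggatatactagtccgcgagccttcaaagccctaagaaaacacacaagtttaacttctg
mt-Tp: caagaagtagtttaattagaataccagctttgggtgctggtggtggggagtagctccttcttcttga
mt-Ty: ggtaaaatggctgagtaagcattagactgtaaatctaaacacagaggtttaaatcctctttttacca
mt-Tq: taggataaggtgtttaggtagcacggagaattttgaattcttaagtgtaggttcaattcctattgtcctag
The last 60 bases of mt-Atp8 (chrM:7766-7969, plus strand) show in capitals the 43 bases it shares with mt-Atp6.
mt-Atp8: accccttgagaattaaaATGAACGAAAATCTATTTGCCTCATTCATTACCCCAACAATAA

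Libraries held 20830943 to 45710227 counts. A gene with no count is limited to 3 counts, or 0.0633 to 0.152 CPM depending on the library, and such limits cover counting error only. 3 sets of libraries stood apart in ways that touch the mitochondrial genes. In HFSC flox replicate 4 the mt-Nd3 region was counted as in KO libraries, not as in the other flox libraries. HFSC flox replicates 1, 3 and 4 had 7.78, 7.995 and 8.50 counts of Gm13340, a chromosome 2 copy of mt-Co1 with 97.6% identity, per 10000 counts of mt-Co1, against 1.85 to 2.496 in the other 10 libraries. Chow flox replicates 2 and 3 had the lowest mitochondrial share of all libraries. In those libraries 16 fibroblast and matrix genes summed to 5276 and 9384 CPM, against 1868 CPM in chow flox replicate 4 and 633 to 984 CPM in chow KO. The same genes summed to 3925 to 4774 CPM in HFSC KO and 4399 to 6619 CPM in HFSC flox, a range that holds chow flox replicate 2. The 14 macrophage genes summed to 231 to 291 CPM in HFSC KO, 232 to 373 CPM in HFSC flox, 46.7 to 82.6 CPM in chow KO, and 404, 1089 and 121 CPM in chow flox replicates 2, 3 and 4. No gene of either list was at 0 in any library. By both sums chow flox replicate 3 was the highest of the 13 libraries, chow KO and chow flox replicate 4 were the lowest, and chow flox replicate 2 stood apart from chow libraries more than from HFSC libraries. Results that rest on these libraries are given with and without them, and the part that other cell types played in them was not tested.

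The 35 genes took 6.15% to 11.5% of all counts in a library. The share was 9.47%, 7.85% and 11.5% in HFSC KO, 10.1%, 8.70%, 8.15% and 9.50% in HFSC flox, 7.99%, 9.10% and 9.22% in chow KO, and 6.15%, 6.59% and 9.01% in chow flox, in replicate order. The means were 9.59% ± 1.81 (SD, n = 3) in HFSC KO, 9.10% ± 0.846 (n = 4) in HFSC flox, 8.77% ± 0.679 (n = 3) in chow KO and 7.25% ± 1.54 (n = 3) in chow flox. The 2 lowest values belonged to chow flox replicates 2 and 3, and chow flox replicate 4 lay inside the range of every other group. Fast-fibre genes summed to 112557 and 84402 CPM in replicates 2 and 3, against 184128 CPM in replicate 4. Nuclear-encoded respiratory chain genes summed to 14668 and 13235 CPM, against 19342.5 CPM. By both sums chow flox replicates 2 and 3 were the lowest of all libraries. In bulk tissue, less mitochondrial RNA per muscle fibre and fewer muscle fibres among other cells cannot be told apart.

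**Figure D1:**
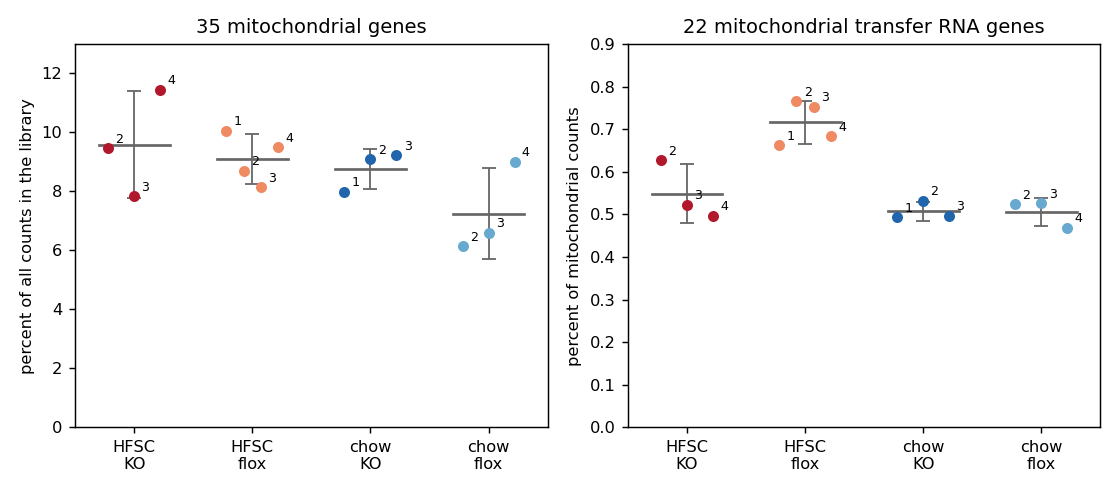
Left, percent of all counts in a library that fell on the 35 mitochondrial genes. Right, percent of those mitochondrial counts that fell on the 22 transfer RNA genes. Points are libraries with their replicate numbers, bars are means and whiskers 1 SD (n = 3, 4, 3 and 3). On the left the groups overlap, and on the right the 4 HFSC flox libraries, at 0.662% to 0.766%, sit above the other 9, at 0.469% to 0.627%.

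Between 99.1% and 99.5% of the mitochondrial counts fell on 7 messengers: mt-Nd1, mt-Nd2, mt-Nd4, mt-Nd5 and mt-Nd6 of complex I (NADH dehydrogenase), mt-Cytb of complex III and mt-Co1 of complex IV (cytochrome c oxidase). mt-Co1, the catalytic subunit of complex IV, held rank 1 among all genes by count in HFSC KO replicate 4, rank 3 in chow KO replicate 1, rank 4 in chow flox replicate 2 and rank 2 in the other 10 libraries. Its level was 36337, 27498 and 45459 CPM in HFSC KO, 34796, 30921, 27278 and 32010.1 CPM in HFSC flox, 27775, 36405 and 36428 CPM in chow KO, and 18983, 18937 and 35063 CPM in chow flox. The 3 higher groups overlapped one another, and chow flox replicate 4 lay within their range while replicates 2 and 3 lay below it.

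Divided by gene length, the 7 messengers kept nearly the same order in every library. mt-Co1 was first in all 13 libraries, at a mean of 23579.9 CPM per kilobase in HFSC KO, 20227 in HFSC flox, 21706 in chow KO and 15746 in chow flox. mt-Cytb was second in 9 libraries and mt-Nd1 second in the other 4, so these neighbours in the order did not differ consistently. mt-Nd2 held rank 4 and mt-Nd6 rank 5 in all 13, while mt-Nd5 held rank 6 and mt-Nd4 rank 7 in 12 of 13. mt-Nd4 is the messenger of the 7 that shares the most sequence with the nuclear copy.

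**Figure D2:**
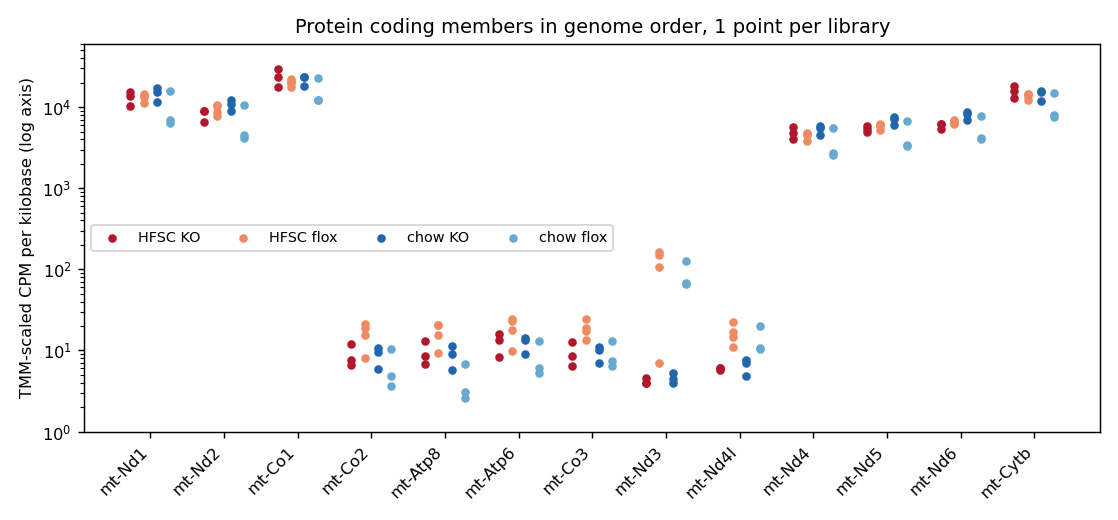
Level of the 13 protein coding genes in genome order, in TMM-scaled CPM per kilobase of gene on a log axis. Each point is a library, with the groups from left to right HFSC KO, HFSC flox, chow KO and chow flox. The 6 genes of the copied interval, mt-Co2 to mt-Nd4l, lie far below the other 7, with group means of 4.13 to 107 CPM per kilobase.

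The 6 messengers of the copied interval were counted at far lower levels than the other 7. They encode mt-Co2 and mt-Co3 of complex IV, mt-Atp6 and mt-Atp8 of ATP synthase (complex V), and mt-Nd3 and mt-Nd4l of complex I. mt-Co2 averaged 8.72 CPM per kilobase in HFSC KO, 15.9 in HFSC flox, 8.80 in chow KO and 6.31 in chow flox, although its subunit works in the same enzyme as that of mt-Co1. Of the 5 transfer RNA genes in the interval, mt-Td and mt-Tk had 0 counts in all 13 libraries and mt-Ts1 at most 8. The sources used here do not give how the authors treated reads that align in several places, so the levels of these genes are what was counted and not a measure of their RNA.

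The transfer RNA genes spanned a wide range of levels, and the same 5 genes had the highest mean levels in each of the 4 groups. The highest per kilobase over all 13 libraries were mt-Te for glutamate (median 2006 CPM per kilobase, range 1105 to 2430.3), mt-Tp for proline (1754, 1028 to 2467) and mt-Tn for asparagine (1247, 521 to 1556), all on the minus strand. Next were mt-Tl1 for leucine (705, 277 to 1521) and mt-Tc for cysteine (591, 219 to 709). At the other end outside the copied interval were mt-Tw for tryptophan (35.3, 18.7 to 84.7), mt-Tt for threonine (19.6, 7.64 to 51.4) and mt-Tf for phenylalanine (14.5, 8.64 to 33.5). In every library both mt-Te and mt-Tp lay under the lowest level of any of the 7 abundant messengers. Transfer RNA genes of the minus strand had a median level of 442 CPM per kilobase (n = 8 genes, range 0 to 2006) and those of the plus strand 45.5 (n = 14 genes, range 0 to 705). Both medians include genes of the copied interval, mt-Ts1 (0) on the minus strand and mt-Td (0), mt-Tk (0), mt-Tg (0) and mt-Tr (5.29) on the plus strand. The strand setting of the counting is not given, so the difference cannot be assigned to a strand.

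The 3 largest differences between KO and flox, on either diet, were at mt-Tg, mt-Nd3 and mt-Tr, neighbours in the copied interval, and the next gene along, mt-Nd4l, is described with them. mt-Nd3, a complex I subunit, had 39, 42 and 45 counts in HFSC KO, 1561, 1114, 1351 and 114 in HFSC flox, 41, 39 and 43 in chow KO, and 951, 861 and 1164 in chow flox. Its level was 1.46 ± 0.128 CPM in HFSC KO, 37.2 ± 24.6 in HFSC flox, 1.60 ± 0.230 in chow KO and 30.3 ± 12.2 in chow flox (SD, n = 3, 4, 3 and 3). All 6 KO libraries lay below all 7 flox libraries, and HFSC flox replicate 4, at 2.41 CPM, lay next to the KO libraries and far from the other 6 flox libraries.

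The nuclear copy showed the opposite pattern. Gm28438 had 1356, 951 and 1283 counts in HFSC KO, 83, 26, 81 and 2285 in HFSC flox, 931, 1411 and 1377 in chow KO, and 31, 32 and 25 in chow flox. mt-Nd3 thus held 2.80%, 4.23% and 3.39% of the counts of the pair in HFSC KO, 95.0%, 97.7%, 94.3% and 4.75% in HFSC flox, 4.22%, 2.69% and 3.03% in chow KO, and 96.8%, 96.4% and 97.9% in chow flox. The libraries fell into 7 with under 5% and 6 with over 94%, and the division followed genotype except for HFSC flox replicate 4. Summed over the pair, the level was 43.3 ± 9.41 CPM in HFSC KO, 50.8 ± 8.20 in HFSC flox, 50.8 ± 15.3 in chow KO and 31.2 ± 12.3 in chow flox (SD), and the groups overlapped within each diet. The sequences above differ at the single base T3C over the aligned length, and which base the reads carried at that position cannot be read from a count table.

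mt-Tg had 0 counts in all 6 KO libraries and in HFSC flox replicate 4, against 163, 124 and 181 in HFSC flox replicates 1 to 3 and 120, 107 and 143 in chow flox. mt-Tr had 6, 1 and 6 counts in HFSC KO, 87, 73, 89 and 3 in HFSC flox, 3, 9 and 4 in chow KO, and 72, 64 and 83 in chow flox. Both transfer RNA genes split the libraries exactly as mt-Nd3 did. mt-Nd4l had 48, 55 and 51 counts in HFSC KO, 198, 100, 160 and 155 in HFSC flox, 42, 57 and 48 in chow KO, and 130, 115 and 158 in chow flox. Its share of the summed counts of mt-Nd4l and Gm10222 was 27.0% to 32.2% in HFSC KO, 70.8% to 74.6% in HFSC flox replicates 1 to 3, 37.1% in replicate 4, 23.1% to 25.7% in chow KO and 75.2% to 81.0% in chow flox. For mt-Nd4l, too, HFSC flox replicate 4 lay nearer the KO libraries in this share.

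**Figure D3:**
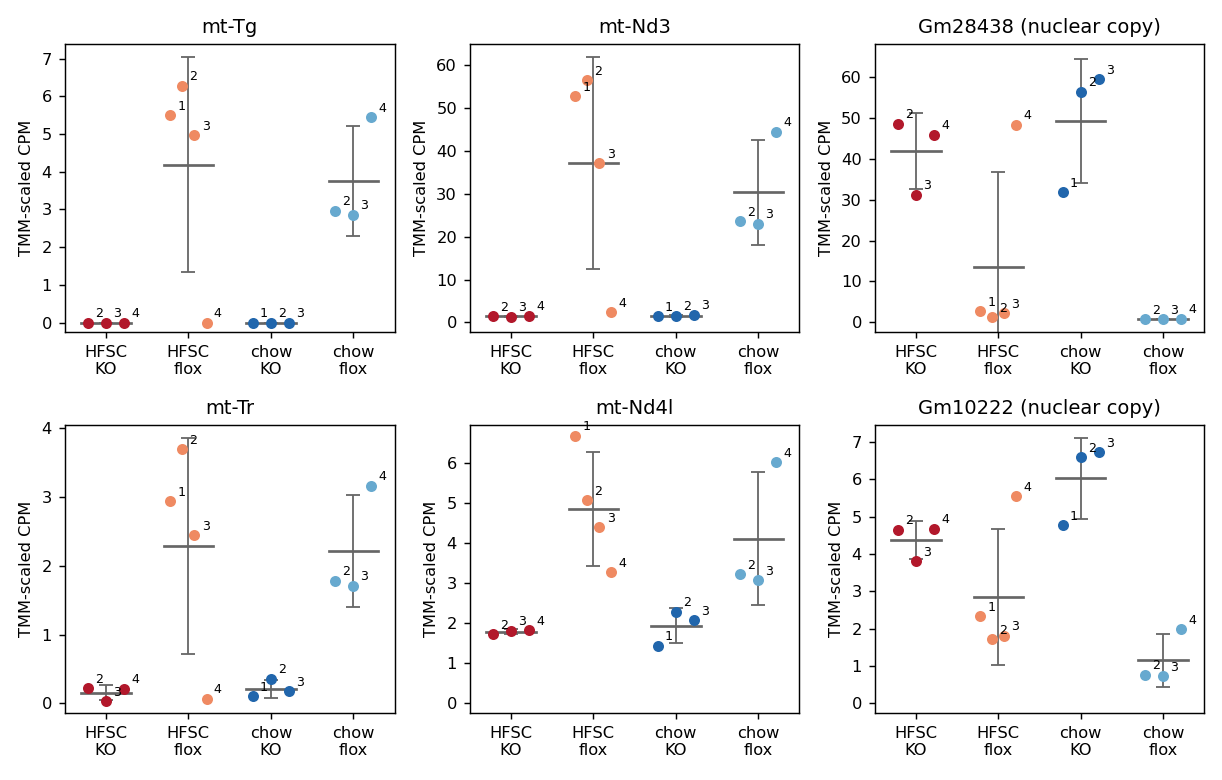
TMM-scaled CPM of mt-Tg, mt-Nd3, mt-Tr and mt-Nd4l and of the nuclear copies of mt-Nd3 (Gm28438) and mt-Nd4l (Gm10222), on linear axes. Points are libraries with replicate numbers, bars are means and whiskers 1 SD. The mitochondrial genes are low in the 6 KO libraries and, except for mt-Nd4l, low in HFSC flox replicate 4, while the copies are high in those 7 libraries.

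KO and flox muscle on chow were compared first for what changes without the locus. Of the 35 genes, 32 passed the low-count filter and were tested. In chow KO 2 of them were higher, mt-Ty and mt-Tq, and 4 were lower, mt-Nd3, mt-Tg, mt-Nd4l and mt-Tr (edgeR quasi-likelihood test, Benjamini-Hochberg adjusted p under 0.05 over 16496 genes). Over all genes tested, 1.38% were called higher and 10.1% lower in this comparison.

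mt-Nd3 was lower in chow KO by a log2 fold change of -4.24 ± 0.83 (SE, edgeR adjusted p = 0.0178), mt-Tr by -3.38 ± 0.998 (edgeR adjusted p = 0.0463) and mt-Nd4l by -1.09 ± 0.31 (edgeR adjusted p = 0.0436), each with no overlap between the groups. mt-Tg was at least 32.1-fold lower in chow KO, taking 3 counts per library as the limit for its 0 counts (edgeR adjusted p = 0.0396). When counts of the near-identical nuclear copies were merged into each gene before the fit, the direction turned. mt-Nd3 with its copy differed by 0.71 ± 0.28 (edgeR adjusted p = 0.108) and mt-Nd4l with its copy by 0.60 ± 0.27 (edgeR adjusted p = 0.137), and neither passed. For mt-Tg and mt-Tr no such merging could be done, because the bases between the annotated pseudogenes were neither compared nor counted. Their lower counts in chow KO are therefore what was counted and not a measure of their RNA.

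mt-Ty, the tyrosine transfer RNA gene, had 12.3, 17.3 and 14.4 CPM in chow KO, against 4.87, 3.90 and 8.61 CPM in chow flox. It was higher in chow KO by 1.35 ± 0.31 on the log2 scale (SE, edgeR adjusted p = 0.0217). mt-Tq, the glutamine transfer RNA gene, had 3.62, 4.95 and 4.18 CPM in chow KO, against 1.66, 1.79 and 3.32 CPM in chow flox, a log2 fold change of 0.93 ± 0.27 (SE, edgeR adjusted p = 0.0445). The summed level of RNAs known to lack a poly(A) tail was 301 to 334 CPM in chow KO and 158 to 298 CPM in chow flox, where replicate 4 was the highest. Of 19 such genes present, 9 could be tested and 0 were called in this contrast. The part of these RNAs in the calls of mt-Ty and mt-Tq was not tested. The groups did not overlap for mt-Ty or mt-Tq, nor for the asparagine and cysteine genes mt-Tn (0.87 ± 0.28, edgeR adjusted p = 0.0617) and mt-Tc (0.80 ± 0.27, edgeR adjusted p = 0.0667), which did not pass. These 4 genes were the ones with no overlap in the higher direction among the 32 tested, and 4 had none in the lower direction. Over all genes tested, 10.9% had no overlap in the higher and 13.9% in the lower direction.

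All 7 abundant messengers had positive log2 fold changes in chow KO, of 0.46 for mt-Co1 to 0.73 for mt-Nd2, with a median of 0.58, against a median of -0.01 over all genes tested. None of the 7 passed with edgeR, 3 had an unadjusted p under 0.05 (mt-Nd2, mt-Nd5 and mt-Nd6), DESeq2 called 2 and limma voom all 7. Throughout, the shares over all genes are those of edgeR adjusted p. Counts by the other tools or by unadjusted p have no such share beside them and cannot be judged against all genes. For the 17 transfer RNA genes outside the copied interval the median was 0.65 and 15 values were positive. With library totals in place of TMM the median of the 7 was 0.31 and that of all genes -0.35. The values depended on which chow flox libraries were in the fit. Without chow flox replicates 2 and 3 the median of the 7 messengers was -0.04 with 3 values positive, and that of the 17 transfer RNA genes 0.15 with 11 positive. Those 2 libraries had the lowest mitochondrial share, so leaving them out was bound to lower the values, and it left 1 chow flox library. Without chow flox replicate 4 the medians were 1.004 and 1.01, and 22 genes were called, with no share over all genes given here.

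On HFSC, none of the 32 genes passed between KO and flox with edgeR. At an unadjusted p under 0.05 there were 10, all lower in HFSC KO, while DESeq2 called 5 (mt-Tw, mt-Tg, mt-Nd3, mt-Tr and mt-Nd4l, all lower) and limma voom called 0. Over all genes tested, 0.0182% were called higher and 0% lower. mt-Nd3 was lower in HFSC KO by -4.66 ± 0.82 on the log2 scale (SE, edgeR adjusted p = 0.127) and mt-Nd4l by -1.44 ± 0.30 (edgeR adjusted p = 0.137). Without HFSC flox replicate 4, mt-Tg, mt-Nd3 and mt-Tr were called lower. That library stood apart by the counts of these same genes, so calls made without it are no independent support. The log2 fold change was then -5.06 for mt-Nd3. Over its 17 alternatives the adjusted p of mt-Nd3 in this contrast ran from 9.78e-07 to 0.824. The highest was reached with the nuclear copies merged, where the log2 fold change was -0.23 ± 0.26.

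mt-Tw, the tryptophan transfer RNA gene, had 2.36, 1.38 and 1.89 CPM in HFSC KO, against 4.93, 5.67, 3.32 and 3.12 CPM in HFSC flox. It was lower in HFSC KO by -1.17 ± 0.29 on the log2 scale and did not pass (SE, edgeR adjusted p = 0.22), although the groups did not overlap. The other genes with no overlap were mt-Tl1, mt-Co3, mt-Nd3 and mt-Nd4l, all lower in HFSC KO, which makes 5 of the 32 tested, against 5.31% of all genes tested. The 7 abundant messengers had a median log2 fold change of 0.01 with 4 values positive, and the 17 transfer RNA genes outside the copied interval a median of -0.33 with 3 positive, against 0.00 over all genes. With size factors by relative log expression the median of the 7 was -0.00 with 3 positive.

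**Figure D4:**
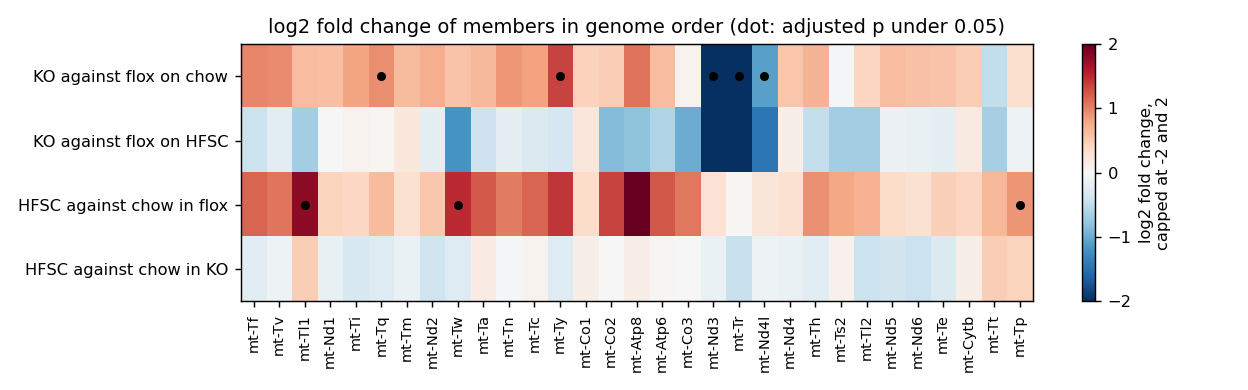
Log2 fold changes of 31 tested mitochondrial genes in genome order for the 4 pairwise contrasts, with colour capped at -2 and 2 and a dot where the edgeR adjusted p is under 0.05. mt-Tg is left out because its fold change against 0 counts is only a bound. HFSC against chow in flox is positive for every gene shown, and both KO against flox rows are strongly negative at mt-Nd3 and mt-Tr.

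HFSC and chow were compared within flox muscle for the effect of the diet with the locus present. Transfer RNA genes were higher in HFSC flox: mt-Tl1, mt-Tw and mt-Tp passed and no gene was lower. The log2 fold change was positive for all 32 genes tested, and with library totals in place of TMM it was positive for all 24 of them outside the copied interval. Over all genes tested, 0.115% were called higher and 0.303% lower.

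mt-Tl1, one of a pair of leucine transfer RNA genes, had 108, 114, 91.4 and 101 CPM in HFSC flox, against 20.8, 22.2 and 47.0 CPM in chow flox. It was higher in HFSC flox by 1.79 ± 0.31 on the log2 scale (SE, edgeR adjusted p = 0.0287). mt-Tw had 4.93, 5.67, 3.32 and 3.12 CPM in HFSC flox, against 1.29, 1.26 and 2.02 CPM in chow flox, a log2 fold change of 1.49 ± 0.29 (SE, edgeR adjusted p = 0.0496). mt-Tp, the proline transfer RNA gene, had 145, 131, 139 and 165 CPM in HFSC flox, against 69.3, 68.9 and 98.8 CPM in chow flox, a log2 fold change of 0.88 ± 0.17 (SE, edgeR adjusted p = 0.0481). The groups did not overlap for any of the 3, and in each the chow flox library nearest the HFSC libraries was replicate 4. In all, 11 genes had no overlap and were higher in HFSC flox, against 4.26% of all genes tested.

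**Figure D5:**
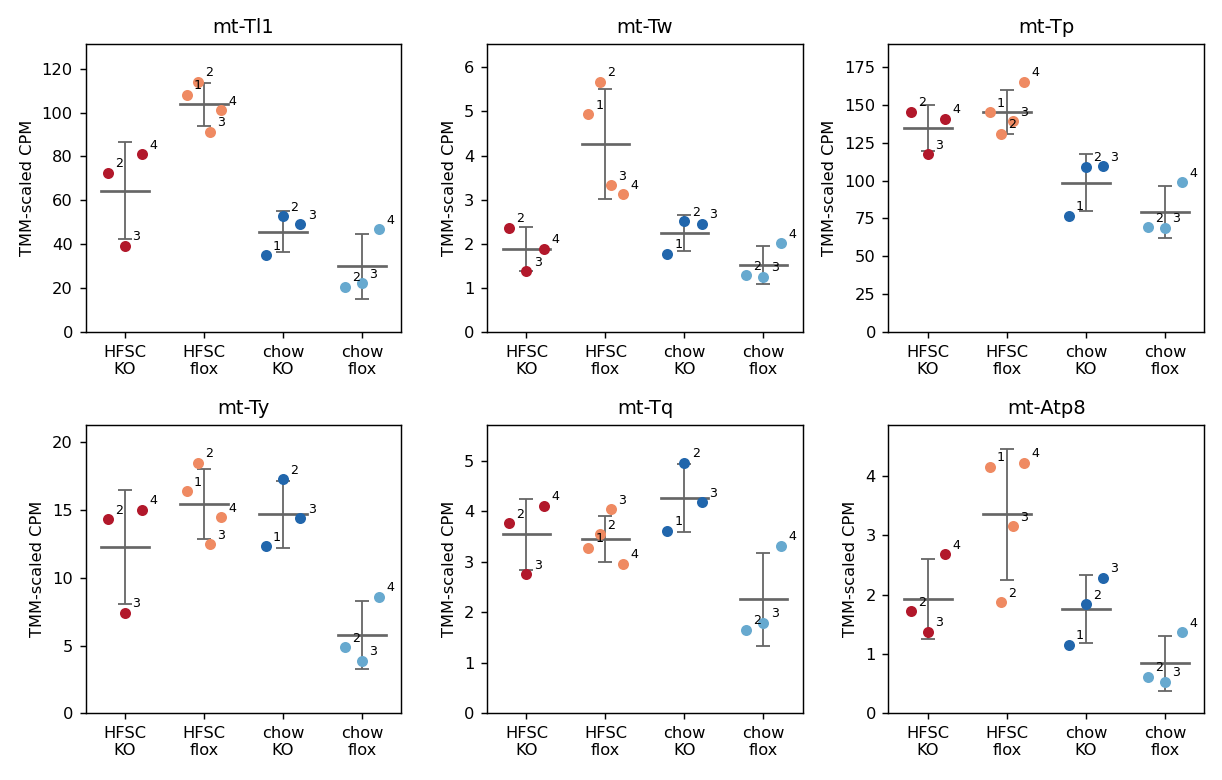
TMM-scaled CPM of 5 transfer RNA genes and of mt-Atp8 by group, on linear axes. Points are libraries with replicate numbers, bars are means and whiskers 1 SD. mt-Tl1, mt-Tw and mt-Tp are higher in all 4 HFSC flox libraries than in the 3 chow flox libraries, while mt-Ty and mt-Tq separate chow KO and chow flox.

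Set against a neighbouring messenger, called transfer RNA genes outside the copied interval could be read without library scaling. mt-Tl1, directly upstream of mt-Nd1, had 82.9 ± 4.41 counts per 10000 of mt-Nd1 in HFSC flox, against 33.1 ± 3.05 in chow flox (SD, n = 4 and 3). In KO muscle the same ratio was 49.9 ± 8.40 on HFSC, against 32.6 ± 3.25 on chow (n = 3 each). All 7 HFSC libraries lay above all 6 chow libraries in this ratio. mt-Tw per 10000 of mt-Nd2 was 4.35 ± 0.802 in HFSC flox, against 2.48 ± 0.569 in chow flox, and mt-Tp per 10000 of mt-Cytb was 92.3 ± 8.18 in HFSC flox, against 70.9 ± 11.9 in chow flox. mt-Ty per 10000 of mt-Co1 was 4.38 ± 0.405 in chow KO, against 2.36 ± 0.267 in chow flox, with no overlap. On HFSC the order was the opposite, also with no overlap, at 3.32 ± 0.618 in HFSC KO, against 4.95 ± 0.693 in HFSC flox. For mt-Tq, set against either mt-Nd1 or mt-Nd2, chow KO and chow flox overlapped, so its separation on chow was not seen in these ratios. The 22 transfer RNA genes together made up 0.549% ± 0.0687 of mitochondrial counts in HFSC KO, 0.716% ± 0.0507 in HFSC flox, 0.507% ± 0.0215 in chow KO and 0.506% ± 0.0324 in chow flox.

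The 7 abundant messengers had log2 fold changes of 0.30 for mt-Nd4 to 0.53 for mt-Nd2 in HFSC flox over chow flox, with a median of 0.37. None of them passed with edgeR or had an unadjusted p under 0.05, while DESeq2 called 0 and limma voom all 7. For the 17 transfer RNA genes outside the copied interval the median was 0.92, against -0.01 over all genes tested. Chow flox replicates 2 and 3 had the lowest mitochondrial share, so leaving them out was bound to lower these values, and it left 1 chow flox library. Without them all 7 messenger values were negative, with a median of -0.21. The transfer RNA median was 0.47 without them, with 14 of 17 values positive. These values are no independent check of the direction. With HFSC flox replicates 1, 3 and 4 left out, which also left 1 library, mt-Tl1, mt-Tw and mt-Tp had log2 fold changes of 1.93, 1.91 and 0.73.

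In the copied interval, the messengers mt-Co2, mt-Atp8, mt-Atp6 and mt-Co3 had log2 fold changes of 1.06 for mt-Co3 to 2.03 ± 0.41 for mt-Atp8 in HFSC flox over chow flox, and none passed (edgeR adjusted p = 0.0601 for mt-Atp8). mt-Atp8, an ATP synthase subunit, had 4.15, 1.87, 3.16 and 4.22 CPM in HFSC flox, against 0.619, 0.534 and 1.37 CPM in chow flox. The high values were those of HFSC flox replicates 1, 3 and 4, the libraries with more counts at the chromosome 2 copy. Per 10000 counts of mt-Co1, mt-Co2 had 4.14, 3.84 and 4.06 in these 3 libraries, against 1.79 in HFSC flox replicate 2 and 1.33 to 2.02 in the other groups. The part that the nuclear copies played in these levels was not tested.

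In KO muscle, none of the 32 genes passed between HFSC and chow with edgeR, and 1 had an unadjusted p under 0.05, mt-Tp. DESeq2 called 0 and limma voom 3 (mt-Tl1, mt-Nd6 and mt-Tp). Over all genes tested, 14.9% were called higher and 10.6% lower in this contrast, the one with the most calls. mt-Tp had 146, 118 and 141 CPM in HFSC KO, against 76.9, 109 and 109.5 CPM in chow KO, a log2 fold change of 0.45 ± 0.18 that did not pass (SE, edgeR adjusted p = 0.0746). mt-Tp was the single gene with no overlap in the higher direction, against 26.8% of all genes tested. mt-Nd5 (-0.37 ± 0.25, edgeR adjusted p = 0.281) and mt-Nd6 (-0.43 ± 0.23, edgeR adjusted p = 0.182) were the 2 with none in the lower direction, against 23.8% of all genes.

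mt-Nd6, the one messenger copied from the other strand, had 3251, 2791 and 3227 CPM in HFSC KO, against 3642, 4288 and 4524 CPM in chow KO. Per 10000 counts of mt-Cytb, the next messenger along the genome, it stood at 1746 ± 191 in HFSC KO, 2186 ± 89.8 in HFSC flox, 2533 ± 102 in chow KO and 2374 ± 35.8 in chow flox. The HFSC libraries all lay below the chow libraries for this ratio, and the KO libraries below the flox libraries on HFSC. Counts of mt-Nd5, its plus-strand neighbour, separated the same libraries when set against mt-Cytb, so the pattern was not particular to mt-Nd6. The strand setting is not given, and counts of mt-Nd6 may include reads from the opposite strand. The 7 abundant messengers had a median log2 fold change of -0.15 in HFSC KO over chow KO with 2 values positive, and the 17 transfer RNA genes outside the copied interval -0.13 with 6 positive. Both signs turned with library totals in place of TMM, to 0.04 and 0.07, where the median of all genes was 0.21 in place of 0.02.

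The interaction asks whether the KO against flox difference was itself different on HFSC and on chow. No gene of the 16496 was called by edgeR, so the background was 0% in either direction. Of the 32 mitochondrial genes, 16 had an unadjusted p under 0.05, all negative. All 32 log2 values were negative, but the sign of mt-Tg (-0.146 ± 718, SE) has no meaning, since it had 0 counts in both KO groups. The median was -0.60 for the 7 abundant messengers and -1.07 for the 17 transfer RNA genes, against 0.04 over all genes. With library totals 1 of the 7 and 1 of the 17 turned positive. The smallest adjusted p-values belonged to mt-Tw (-1.75 ± 0.42, edgeR adjusted p = 0.0665), mt-Ty (-1.68 ± 0.41, edgeR adjusted p = 0.0682) and mt-Atp8 (-1.90 ± 0.58, edgeR adjusted p = 0.0858). DESeq2 called 5 of the 32 and limma voom 24, all negative. The background of 0% is that of edgeR, and none is given here for these tools or for unadjusted p. Without chow flox replicates 2 and 3 the median of the 7 messengers was 0.09 with 4 values positive. Those libraries had the lowest mitochondrial share, so leaving them out was bound to raise the interaction values. Without chow flox replicate 4 there were 23 calls, with no share over all genes given here.

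Nuclear genes that copy, process and use the mitochondrial genome were examined beside these results. Of the 162 genes tested in 6 lists, 4 were higher and 1 was lower in chow KO than in chow flox, against 1.38% and 10.1% of all genes tested. In chow KO over chow flox, 1 of 17 transcription genes was higher, Tfb2m (0.56 ± 0.16, edgeR adjusted p = 0.0419), the initiation factor that melts mitochondrial promoters. Of 29 genes for RNA processing and decay 1 was higher, Hsd17b10 (0.41 ± 0.12, edgeR adjusted p = 0.0405), a subunit of mitochondrial RNase P. Of 20 transfer RNA modification genes 1 was higher, the methyltransferase Trmt1 (0.46 ± 0.12, edgeR adjusted p = 0.0305). Of 22 genes of mitochondrial DNA maintenance, Rrm2b, a ribonucleotide reductase subunit, was higher (0.78 ± 0.21, edgeR adjusted p = 0.036) and the nuclease Dna2 lower (-1.31 ± 0.31, edgeR adjusted p = 0.0246). None of 22 genes of transfer RNA charging and none of 52 nuclear-encoded respiratory chain genes passed, with medians of 0.13 and 0.22. By unadjusted p 6 charging genes and 3 respiratory chain genes were under 0.05, DESeq2 called 2 and 1, and limma voom 11 and 46. The medians of the 6 lists lay between 0.13 and 0.23. Without chow flox replicates 2 and 3, edgeR called 0 of all genes tested in this contrast.

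In HFSC KO over chow KO, 10 of the 162 genes were higher and 8 lower, against 14.9% and 10.6% of all genes tested, both shares below those of all genes. The fibroblast and macrophage sums given above were higher in HFSC KO with no overlap, as was that of 12 endothelial genes, at 766 to 842 CPM in HFSC KO and 366 to 427 CPM in chow KO. Their part in these differences was not tested. Ppargc1a, the coactivator PGC-1 alpha of mitochondrial biogenesis, averaged 112 ± 57.8 CPM in HFSC KO and 56.4 ± 15.02 CPM in chow KO (SD, n = 3 each) and was higher by 0.99 ± 0.30 on the log2 scale (SE, edgeR adjusted p = 0.0322). Mrpl12, a ribosomal protein that also binds Polrmt, was higher by 0.50 ± 0.15 (edgeR adjusted p = 0.0316). These were the 2 of 17 transcription genes that passed. Of the 22 maintenance genes, Rrm2b (-0.92), Top1mt (-0.79) and Mgme1 (-0.54) were lower and Dna2 (0.94) higher. Among processing genes the deadenylase-family member Angel2 (-0.39) and 1110008L16Rik (-0.54) were lower, and among modification genes Trmt1 (-0.49) and the methyltransferase Nsun3 (-0.53). Cars2, the cysteine synthetase, was the 1 of 22 charging genes that rose (0.32).

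Of the 52 nuclear-encoded respiratory chain genes, 6 were higher in HFSC KO, among them Atp5k (0.57), Ndufs8 (0.56) and Uqcrc2 (0.55), and 1 was lower, the muscle isoform gene Cox6a2 (-0.70), with a median of 0.26. Over all genes tested, 14.9% were called higher and 10.6% lower, so both counts lay below the shares of all genes. In the same contrast none of the 32 mitochondrial genes was called. In the 3 contrasts that follow, none of the 162 genes of the 6 lists passed with edgeR. In HFSC KO over HFSC flox 19 had an unadjusted p under 0.05, DESeq2 called 1 and limma voom 0. In HFSC flox over chow flox these counts were 30, 2 and 78, and in the interaction 18, 6 and 38. Genes of slow oxidative fibres were called lower on HFSC in either genotype, 10 of 11 in KO and 9 of 11 in flox, against 10.6% and 0.303% of all genes tested. The median log2 fold changes of the slow-fibre genes were -2.70 and -2.60. Their part in the mitochondrial levels was not tested.

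RNAs known to lack a poly(A) tail were measured because transfer RNA counts may vary with the selection. Their summed level over the 19 genes present was 128 to 163 CPM in HFSC KO, 161 to 198 in HFSC flox, 301 to 334 in chow KO and 158 to 298 in chow flox. Between 2 and 7 of the 19 genes had 0 counts in a library. HFSC flox, the group with the highest transfer RNA share, lay within the range of chow flox for these RNAs. HFSC KO lay below chow KO with no overlap, and 4 of the 9 genes tested were called lower there, against 10.6% of all genes tested. HFSC KO and HFSC flox overlapped. Chow KO, from 301 CPM, lay only just above chow flox replicate 4, at 298 CPM. Within chow flox the level was 158 and 167 CPM in replicates 2 and 3. The part of these RNAs in the transfer RNA counts was not tested.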

How the data were processed

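The deposited values are raw read counts by Ensembl identifier. The submitters' processing notes name the read trimmer Trimmomatic 0.36, the aligner STAR 2.5.2b, the counter featureCounts (Subread 1.5.2) and build GRCm38 for the authors' counts. Neither the annotation release nor the strand and multi-mapping settings are stated. GENCODE M21 supplied symbols, coordinates and sequence for 48970 of 49315 identifiers. Nuclear copies were found with BLAST 2.17.0 (near-identical: at least 99% over at least 100 bases).

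The main test was that of edgeR 4.0.16 under R 4.3.3 (robust quasi-likelihood F test, TMM scaling, filterByExpr, 4 group means, all 13 libraries), adjusted by Benjamini-Hochberg over 16496 genes at 0.05. SE is the log2 fold change divided by the root of F. The test was checked on simulated data. All pairs of replicates differed beyond sampling noise (chi-square per degree of freedom 10.5 to 193 over genes with at least 20 counts).

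Named genes are at most 8 called members per contrast by p, or the 3 with the smallest p where fewer than 3 were called, and others are named as members of a list or class. Members and lists were chosen with earlier results of these data known. Alternatives were other scalings (relative log expression, RLE; library totals; TMM without the mitochondrial genes), DESeq2 1.42.0, limma 3.58.1 voom with quality weights, no filter, a replicate block, only the groups compared, and each library left out. Merging nuclear copies and leaving out sets of libraries were added after the data had been examined. Where a set is left out and 1 library remains, it is assumed to vary like the other groups.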

Additional observations from a re-analysis of the deposited data

How the results depend on the processing

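Counts of called mitochondrial genes moved with the tool and the libraries, and the cause was not tested. No shares over all genes are given here for the alternatives, so these counts cannot be judged against all genes. For KO against flox on chow, limma voom also called 113 and DESeq2 13 of the 162 nuclear genes of the 6 lists. Where 1 library remained in a group, a lost call is not read as a weaker effect. For KO against flox on chow (6 called) the count was 10 with DESeq2, 29 with limma voom, 3 without the filter, 0 with the replicate block, 1 with only the 2 groups compared, 0 to 22 with a library left out, and 0 without chow flox replicates 2 and 3. Leaving out chow flox replicate 4 gave 22, chow KO replicate 1 gave 2, chow flox replicate 2 gave 1, and chow flox replicate 3 or chow KO replicate 2 or 3 gave 0. For KO against flox on HFSC (0 called) it was 5 with DESeq2, 1 without the filter (mt-Nd4l), 0 to 3 with a library left out (3 without HFSC flox replicate 4), and 2 without HFSC flox replicates 1, 3 and 4. For HFSC against chow in flox (3 called) it was 6 with library totals, 11 with DESeq2, 27 with limma voom, 0 with only the 2 groups compared, 0 to 21 with a library left out, 0 without HFSC flox replicates 1, 3 and 4, and 0 without chow flox replicates 2 and 3. There it was 0 without chow flox replicate 2 or 3 or HFSC flox replicate 1 or 4, 1 without HFSC flox replicate 3 and 21 without chow flox replicate 4. For HFSC against chow in KO (0 called) it was 1 with library totals, 3 with limma voom and 1 with only the 2 groups compared (mt-Nd6). For the interaction (0 called) it was 5 with DESeq2, 24 with limma voom and 0 to 23 with a library left out. With nuclear copies merged, mt-Nd3 and mt-Nd4l on chow reversed to 0.71 and 0.60. Of the values of named genes under an alternative, 213 kept direction and side of the threshold, 80 lost the call, 20 gained one and these 2 reversed. Mean mitochondrial shares with a library left out ran from 8.66% to 10.5% in HFSC KO, 8.78% to 9.42% in HFSC flox, 8.54% to 9.16% in chow KO and 6.37% to 7.80% in chow flox. Library totals moved the median of all genes to -0.35 for KO against flox on chow, -0.16 for HFSC against chow in flox, 0.21 for HFSC against chow in KO and 0.37 for the interaction. Replicate numbers did not pair the libraries: 1 of 16 same-numbered pairs had a correlation over 0.1 (range -0.34 to 0.11) and 0 libraries correlated best with their own number, so a call lost with the replicate block is not read as a weaker effect. All shares are without the 2 ribosomal RNA genes, which are not analysed here, and how counting those genes would change the shares was not tested. mt-Ts1, mt-Td and mt-Tk had too few counts to test, and the cause, depth or the treatment of reads shared with the nuclear copies, was not tested.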
